A study of Mus musculus with 26 samples.

Results

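Double-strand break repair genes are the genes whose proteins find, process and rejoin both cut strands of a DNA double helix. A list of 40 of them was followed, and a member was measured where a probe of the array file carried its symbol. Of the 40 members, 33 had such a probe, with 54 probes in all, beside 17899 genes on the whole array. A probe counted as detected on an array when its detection p-value was under 0.05, and a probe detected on at least 3 of the 26 arrays was kept. The 30 members with a kept probe are described here gene by gene. Fancm and Xrcc4 were detected on 0 of 26 arrays and Palb2 on 1 of 26, so these 3 members were counted apart. Gen1 and Rad54b were on the array under older names, 5830483C08Rik and E130016E03Rik, and their values are given beside the 30. Rbbp8, Eme1, Fanca, Fance and Fancf matched no symbol of the file.

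The RNA came from leukocytes sorted out of femoral marrow. The mice were male SCID animals, 6 to 8 weeks old. All groups, the controls included, had the CB17/Icr-Prkdcscid strain and an earlier graft of human acute lymphoblastic leukemia, whose cells were gated out. The 3 conditions were home cage control, restraint stress, and restraint stress plus propranolol, which blocks beta-adrenergic receptors. Each of 2 experiments gave 5 control, 5 restraint and 3 restraint plus propranolol arrays, hence 10, 10 and 6 per condition. No label says whether each array is a separate mouse, so p-values measure the spread between arrays. A separate propranolol-only condition was not analysed here, so an effect of propranolol without restraint cannot be told apart. The Prkdc mutation of the SCID strain impairs the DNA-dependent protein kinase of end joining, so every comparison was made between mice in which this route is already impaired.

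Cells repair double-strand breaks by 2 main routes. In homologous recombination the Mre11a, Rad50 and Nbn complex trims the ends, replication protein A (Rpa1, Rpa2 and Rpa3) coats the bared strand, and Brca1 with Brca2 readies the strand to invade the sister copy, which is present only after DNA replication. Helicases and nucleases such as Blm with Top3a and Rmi1, or Mus81, then take the joined strands apart, and the Fanconi anemia proteins feed interstrand crosslinks into this route. In end joining, the Ku proteins Xrcc5 and Xrcc6 hold the ends, Prkdc and Dclre1c open or trim them, and Lig4 with Xrcc4 and Nhej1 seals them. In developing lymphocytes the same route joins the antigen receptor segments cut by the Rag proteins.

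The libraries differed in quality. Between 39.5% and 51.2% of probes were detected per array, and the third restraint plus propranolol array of experiment 2 had the fewest, with 12 of the 30 members detected. That array, the fourth control array of experiment 2 and the fifth control array of experiment 1 had the 3 lowest array weights in limma (0.155, 0.199 and 0.278). Without these 3 arrays the sign of the restraint change turned for 4 of the 30 members (Nbn, Rpa2, Lig4 and Nhej1), and several values that moved are given both ways. The chosen probes are named as in the file, and a level of one gene is not set against another's because each probe has its own brightness. Ptprc, which encodes the leukocyte antigen CD45, was detected on 26 of 26 arrays.

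Restraint was followed by lower signals for most members, but few passed the test. Values below are log2 intensities after background correction and quantile normalization, and a change is a difference of such values fitted over both experiments. Of the 30 kept members, 22 were lower and 8 higher in restraint than in control, with a median change of -0.16 against -0.00 over all 10792 genes tested. Only Blm passed (limma, adjusted p under 0.05), which is 1 of 30 members, where 2.23% of all genes passed and 1.2% passed as lower. At an unadjusted p under 0.05 there were 8 members, 7 lower and 1 higher, against 14.8% of all genes. No member had values in restraint that lay apart from all control values, pooled or in both experiments, as 0.0834% and 0.315% of all genes did. Of the 23 kept members of homologous recombination, the Fanconi proteins included, 18 were lower (median -0.17), and of the 7 end joining members 4 were (median -0.02). The difference between these routes was not tested. In bulk RNA of sorted cells, fewer cells of a type and less RNA per cell cannot be told apart.

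**Figure D1:**
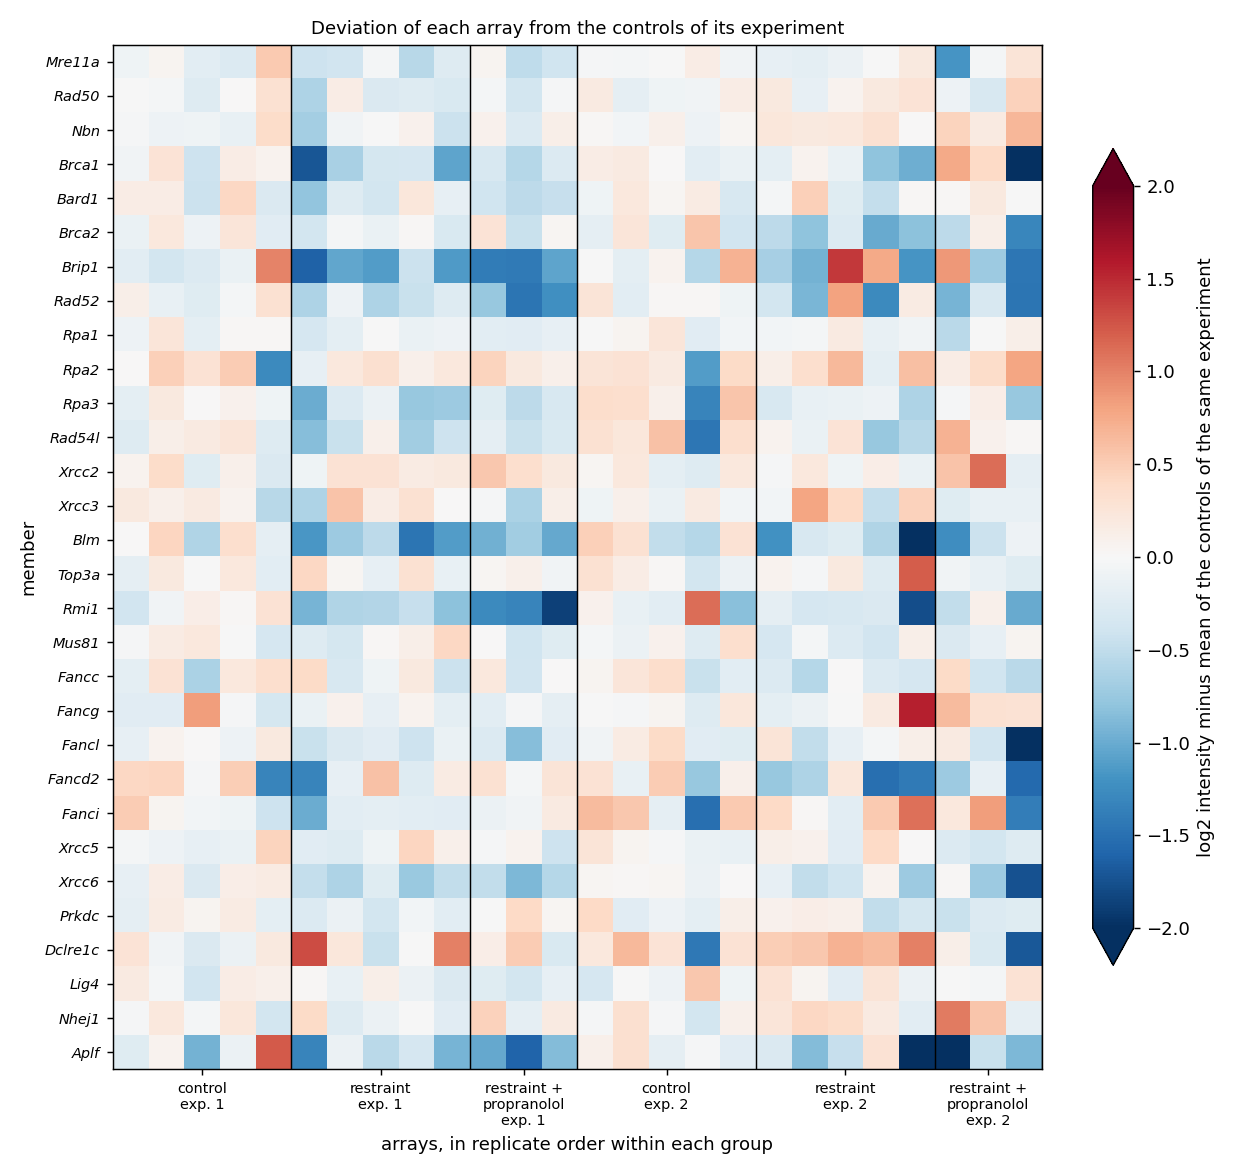
Each row is one of the 30 kept members and each column one of the 26 arrays, coloured by its log2 intensity minus the mean of the control arrays of the same experiment (blue lower, red higher). Restraint arrays of experiment 1 had 19 to 25 of 30 members below the control mean and those of experiment 2 had 16 to 18, while single control arrays ranged from 9 to 23.

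Blm, the helicase mutated in Bloom syndrome, which unwinds joined strands so that crossovers are avoided, showed the largest restraint change of the 30. In experiment 1 the control arrays read 8.34, 8.76, 7.73, 8.67 and 8.15, and the restraint arrays 7.17, 7.61, 7.80, 6.88 and 7.22. In experiment 2 the control arrays read 8.37, 8.20, 7.41, 7.32 and 8.18, and the restraint arrays 6.69, 7.58, 7.66, 7.30 and 4.84. All 10 restraint arrays lay below the control mean of their experiment, yet the groups overlapped in both experiments, and the fifth restraint array of experiment 2 was far lower than the rest. The fitted change was -1.04 ± 0.26 (SE), 2.06-fold lower, with a limma adjusted p of 0.0367 (n = 10 and 10 arrays). It was -0.997 in experiment 1 and -1.08 in experiment 2. Without that low array it was -0.80 (limma adjusted p 0.0297), and over each of the 26 arrays left out in turn the call remained in 15 fits. Restraint plus propranolol arrays read 7.37, 7.64 and 7.30 in experiment 1 and 6.65, 7.46 and 7.80 in experiment 2, between the other conditions in the mean. With the low array, the restraint mean of experiment 2 was 6.81, while the restraint median was 7.30 and the propranolol mean 7.30. The change of the propranolol arrays from control was -0.74 ± 0.30 with a limma adjusted p of 0.183.

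The Blm promoter window is shown because this gene passed in the restraint comparison. It is the RefSeq window of 250 bases before to 50 bases after the gene start (GRCm38.p6, chr7:80534949-80535248, minus strand), written 5′ to 3′. Capitals mark the CCAAT box, the motif bound by the factor NF-Y, on either strand (CCAAT or ATTGG).
Blm: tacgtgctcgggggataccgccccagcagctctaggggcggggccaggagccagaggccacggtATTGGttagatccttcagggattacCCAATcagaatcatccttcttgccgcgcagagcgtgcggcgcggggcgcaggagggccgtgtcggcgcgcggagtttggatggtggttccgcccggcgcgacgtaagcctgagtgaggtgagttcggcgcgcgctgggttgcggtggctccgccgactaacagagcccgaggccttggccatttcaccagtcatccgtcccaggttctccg
The window holds 2 such boxes on opposite strands, and neither the CHR element (TTTGAA or its complement) nor an E2F site was found in these letters.

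Rmi1, which binds Blm and Top3a in the dissolving complex, was lower on all 10 restraint arrays than its controls averaged within the experiment. Its experiment 1 control arrays read 6.67, 6.97, 7.18, 7.06 and 7.34, and its restraint arrays 6.12, 6.44, 6.46, 6.58 and 6.22. In experiment 2 the control arrays read 6.66, 6.42, 6.37, 7.70 and 5.74, and the restraint arrays 6.40, 6.24, 6.27, 6.29 and 4.80. The groups did not overlap in experiment 1 and did in experiment 2, where the fourth control was highest and the fifth restraint array lowest. The change of -0.63 ± 0.23 did not pass (limma adjusted p 0.164). Top3a, the topoisomerase of the complex, was detected on 6 of 26 arrays, and its change of 0.16 ± 0.14 did not pass (limma adjusted p 0.66). Mus81, a nuclease that cuts junctions, was detected on 4 of 26 arrays and had a change of -0.10. Gen1, a nuclease for the same junctions, had a change of -0.73 ± 0.21 (limma adjusted p 0.0735), with 10 of 10 restraint arrays below the mean of the same experiment's controls.

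**Figure D2:**
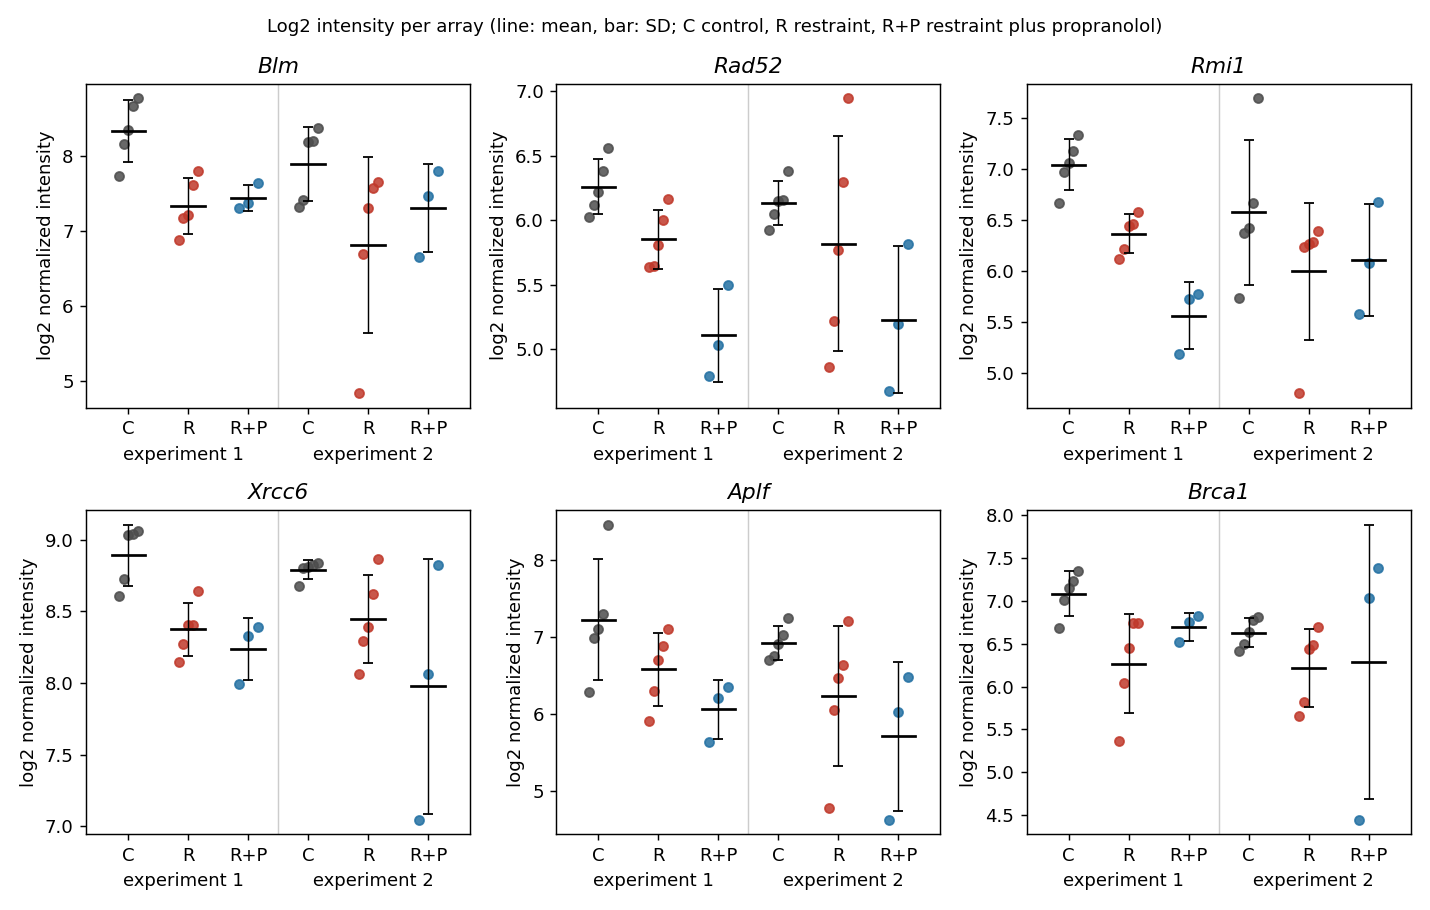
Log2 intensity of 6 members on each array (points), with the mean (line) and SD (bar) of each of the 6 groups. Restraint arrays of Blm lay mostly below their controls, and Rad52 in restraint plus propranolol lay below every control array.

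The 5 kept members of the BRCA complex and its mediators were all lower in restraint, with a median change of -0.42, and 0 of them passed. Brca1, a scaffold and ubiquitin ligase that starts recombination, read 7.01, 7.35, 6.68, 7.24 and 7.15 in experiment 1 controls and 5.37, 6.44, 6.74, 6.74 and 6.04 on restraint arrays. In experiment 2 it read 6.78, 6.81, 6.63, 6.42 and 6.50 in controls and 6.43, 6.70, 6.49, 5.82 and 5.65 under restraint. It was below the control mean on 9 of 10 restraint arrays, the groups overlapped in both experiments, and the change of -0.61 ± 0.26 did not pass (limma adjusted p 0.256).

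Brca2, which works on the bared strand before it invades, ranged from 5.76 (median 5.96, highest 6.69) in the 10 controls and from 5.14 (median 5.73, highest 6.09) under restraint. The ranges overlapped, and the change of -0.42 ± 0.16 did not pass (limma adjusted p 0.202). It was larger in experiment 2 (-0.68) than in experiment 1 (-0.16), but the difference between experiments did not pass either (unadjusted p 0.108). Brip1, a helicase bound to Brca1, read 6.01, 5.86, 5.94, 6.09 and 7.21 in experiment 1 controls against 4.60, 5.19, 5.11, 5.80 and 5.10 under restraint, without overlap. In experiment 2 it spread from 4.59 to 7.19 under restraint and overlapped its controls, and the pooled change was -0.60 ± 0.31 (limma adjusted p 0.411). Bard1, the partner of Brca1, had a change of -0.16 and Rad52, an annealing protein, of -0.36 (limma adjusted p 0.412).

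Of the 3 single-strand binding proteins, 0 passed. Rpa3, the smallest subunit of replication protein A, lay below the control mean of its experiment on 10 of 10 restraint arrays. Its lowest, median and highest values were 7.04, 8.70 and 8.95 in controls and 7.74, 8.13 and 8.64 under restraint. The ranges overlapped, and the fourth control array of experiment 2 stood alone at 7.04, with the next control at 8.47. In experiment 2 the other controls all lay above the restraint arrays, whose highest value was 8.26. The change was -0.42 ± 0.18 (limma adjusted p 0.276). Without the 3 arrays of low weight Rpa3 passed (-0.58, limma adjusted p 0.00509), together with Rad54l, Blm and Xrcc6, where 3.75% of all genes passed. Rpa1 had a change of -0.09, while Rpa2 had one of 0.22 ± 0.20 and was above the control mean on 8 of 10 restraint arrays. On Rpa2 the same control array (7.48) and the fifth control of experiment 1 (7.44) were the lowest of all arrays. Without the 3 arrays of low weight the Rpa2 change turned to -0.08 ± 0.11, with 3 of 10 restraint arrays above the control mean. The dimmer Rpa2 probe, ILMN_2602687, was detected on 26 of 26 arrays and rose by 0.41 ± 0.17 (limma adjusted p 0.251). On that probe the fourth control array of experiment 2 was the highest control (7.42), so the 2 probes differed on this array.

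Of the end resection proteins, Mre11a had a change of -0.19, Rad50 of -0.08 and Nbn of -0.01, and 0 of the 3 passed by their brightest probe. Of the strand exchange partners, Rad54l, a motor that drives strand invasion, had a change of -0.34 ± 0.20. The fourth control array of experiment 2 read 4.87, far below the other controls, and without the 3 arrays of low weight the change was -0.55 (limma adjusted p 0.0357). Xrcc2 and Xrcc3, which take part in strand exchange, had changes of 0.09 and 0.15. Rad54b, a relative of Rad54l, had a change of -0.83 ± 0.24 (limma adjusted p 0.0794), again with 10 of 10 restraint arrays below their controls' mean. Its highest controls were low-weight arrays, the fourth of experiment 2 (7.34) and the fifth of experiment 1 (7.15), with the next at 6.45. With 1 array left out at a time the Rad54b change ran from -0.95 to -0.69. The 5 kept Fanconi members ranged from -0.51 (Fancd2, which is ubiquitinated together with Fanci when crosslinks are met) to 0.11 (Fancg), and 0 of them passed. Without the 3 arrays of low weight Fancd2 was at -0.78 (limma adjusted p 0.0639) and Fanci at -0.24, in place of -0.00. Fancg was detected on 3 of 26 arrays, with its 2 highest values on single arrays of different groups.

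End joining members went both ways. Xrcc6, the smaller Ku protein, read 8.73, 9.04, 8.61, 9.03 and 9.06 in experiment 1 controls and 8.41, 8.27, 8.65, 8.15 and 8.40 under restraint. In experiment 2 it read 8.82, 8.81, 8.84, 8.67 and 8.81 in controls and 8.62, 8.29, 8.39, 8.87 and 8.06 under restraint. The controls of experiment 2 were tight and 1 restraint array lay above all of them, so the groups overlapped. The change was -0.43 ± 0.15 (limma adjusted p 0.153). The dimmer kept probes of Xrcc6 had smaller changes, -0.12 ± 0.22 and -0.09 ± 0.27. Xrcc5, the partner of Xrcc6, had a change of 0.03 ± 0.11.

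Aplf, a histone chaperone that holds the end joining factors at breaks, ranged over 6.28, 7.01 and 8.46 (lowest, median, highest) in controls and 4.78, 6.55 and 7.21 under restraint. The groups overlapped, and the change of -0.67 ± 0.27 did not pass (limma adjusted p 0.236). Dclre1c, the nuclease Artemis that opens hairpin ends, was the member with the largest rise in the estimate, 0.55 ± 0.26, which did not pass (limma adjusted p 0.336). It ranged over 4.67, 6.15 and 6.74 in controls and 5.48, 6.68 and 7.23 under restraint, and its lowest control was again the fourth of experiment 2. Without that array its change was 0.39. The other kept probes of Dclre1c had changes of 0.04 and 0.12. Prkdc, the gene mutated in the strain, was detected on 7 of 26 arrays, 5 of them controls, and ranged from 4.65 to 5.27 in controls and from 4.39 to 5.01 under restraint. Its change was -0.15 ± 0.11, and a probe signal cannot show whether a transcript has the strain's mutation. Lig4 had a change of -0.02 and Nhej1 of 0.08, detected on 6 and 11 of 26 arrays.

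**Figure D3:**
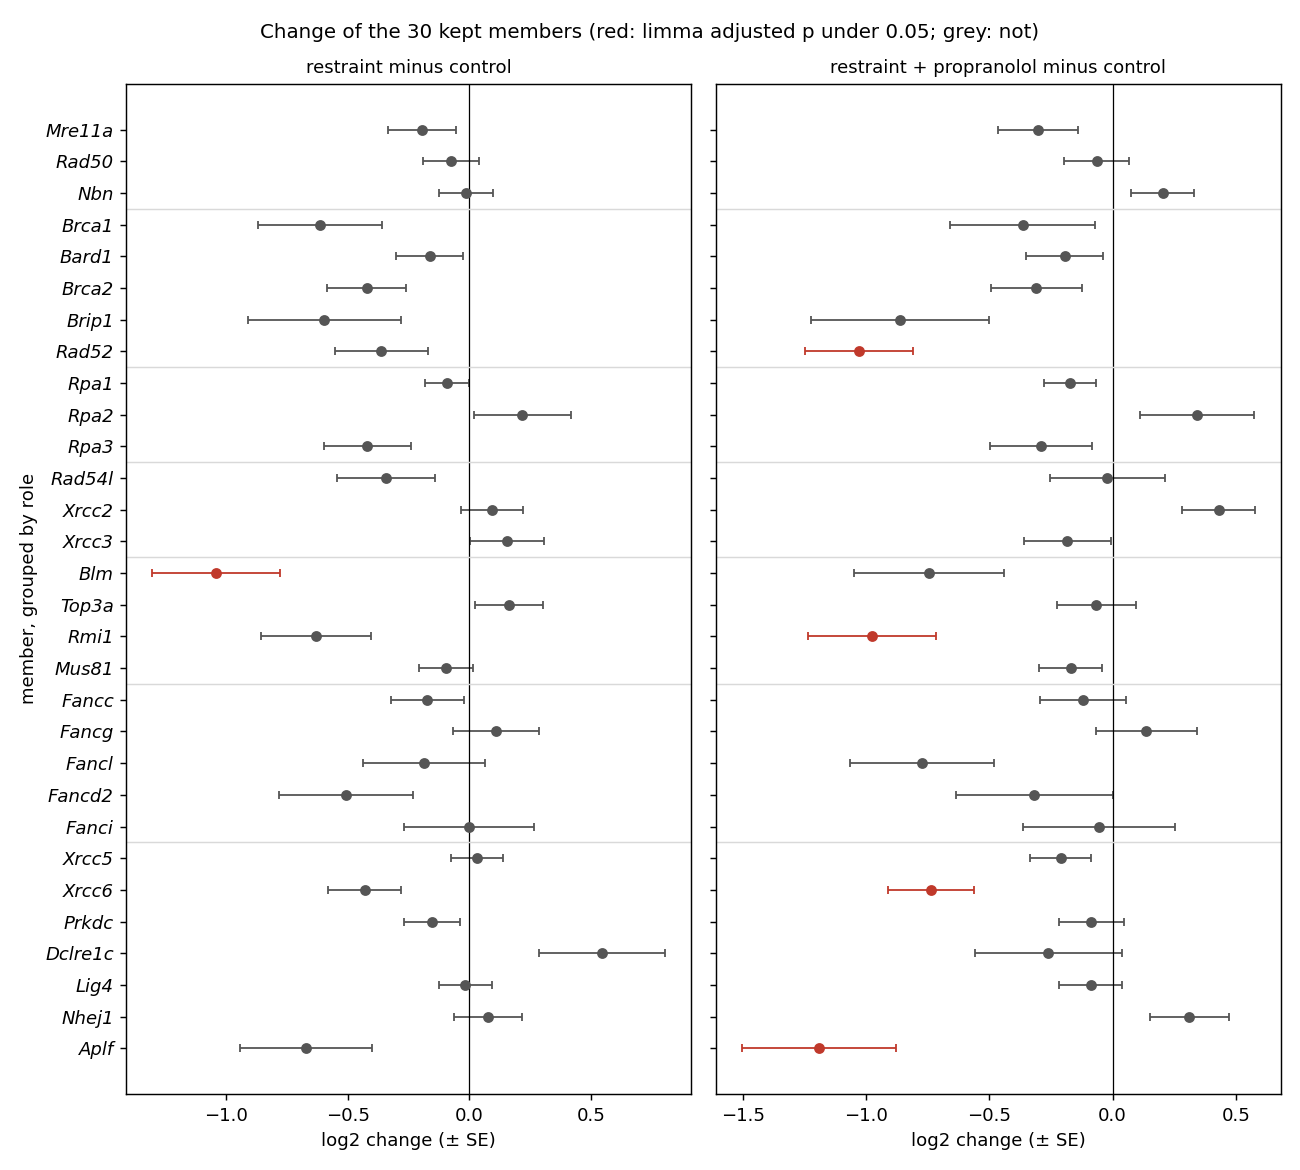
Log2 change and SE of the 30 kept members for restraint minus control (left) and restraint plus propranolol minus control (right), with members grouped by role between the grey lines. Red marks the members that passed, Blm on the left and Rad52, Rmi1, Xrcc6 and Aplf on the right.

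Probes of one gene did not always give one answer. Of the 10 members with several kept probes, Blm and Xrcc2 had probes of both signs under restraint. Blm had 4 kept probes. The chosen probe, ILMN_3150996, had a change of -1.04, and another bright probe, ILMN_2774640, had -1.08 ± 0.21 with a limma adjusted p of 0.00932. The other two, detected on 17 and 11 arrays, had changes of 0.09 and 0.04. The file names 2 transcripts for Blm, and each had 1 probe of either kind, so the split did not follow the transcript name.

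Rad50, an ATPase that tethers the broken ends, had probes that differed in size of change. ILMN_2867427, detected on 26 of 26 arrays, ranged over 6.37, 6.63 and 7.22 in controls, 5.54, 6.15 and 6.63 under restraint, and 5.86, 6.15 and 6.36 with propranolol. The propranolol arrays lay below every control, and the restraint arrays overlapped the controls only at the upper end. Its change was -0.59 ± 0.13 under restraint (limma adjusted p 0.0199) and -0.56 ± 0.15 with propranolol (limma adjusted p 0.0368). The brighter probe that stood for the gene had -0.08 and -0.06, and the remaining one had -0.09 and 0.05. Counted by probe, 3 of the 46 kept member probes, of Blm and Rad50 only, passed under restraint, all lower (6.52%). Of all 15061 probes 2.06% passed, and 1.09% passed as lower. With propranolol 5 member probes passed, all lower (10.9%), where 3.49% of all probes passed and 1.65% passed as lower. Rad50 by ILMN_2867427 was singled out after its values were seen.

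**Figure D4:**
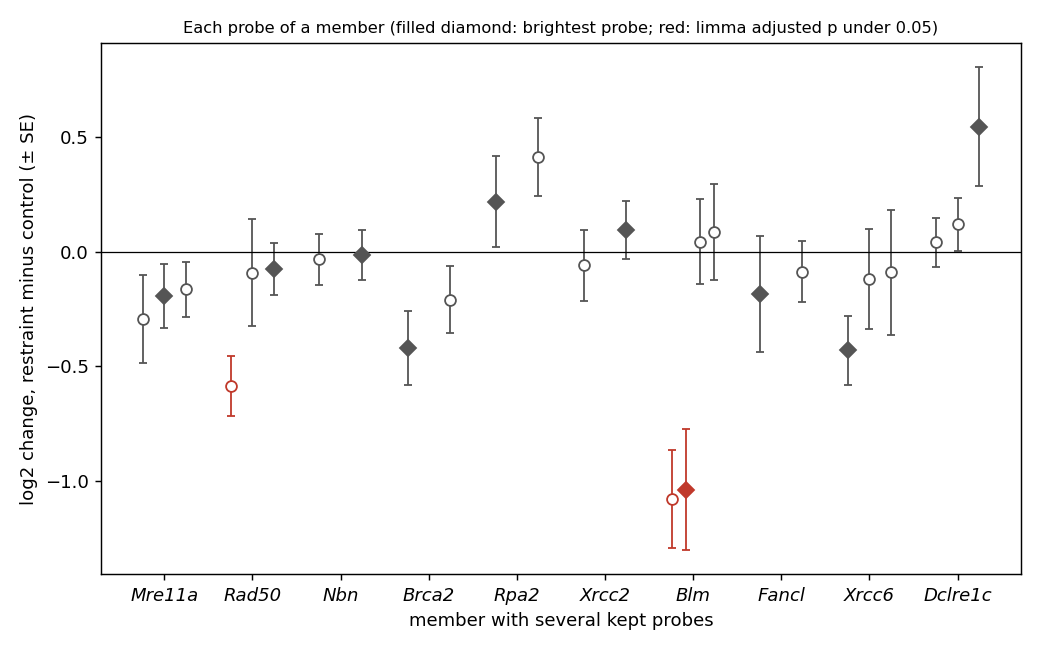
Log2 change and SE, restraint minus control, of each kept probe of the 10 members with several. Filled diamonds are the brightest probe, which stood for the gene, and red marks a limma adjusted p under 0.05: 2 probes of Blm near -1 and 1 dimmer probe of Rad50.

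Restraint plus propranolol was set against control next. Any effect of restraint and any effect of propranolol itself cannot be told apart here. Of the 30 members, 25 were lower and 5 higher, with a median change of -0.19 against -0.02 over all genes. There were 4 of 30 that passed, all lower (13.3%, where 3.8% of all genes passed and 1.95% passed as lower): Rad52, Rmi1, Xrcc6 and Aplf. At an unadjusted p under 0.05 there were 8 members, against 19% of all genes. With Gen1 and Rad54b the count was 6 of 32. This comparison and restraint against control share their control arrays, so the 2 sets of values are not independent.

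Rad52, which anneals complementary strands, was the clearest. Controls read 6.38, 6.12, 6.02, 6.21 and 6.56 in experiment 1 and 6.38, 5.93, 6.15, 6.15 and 6.05 in experiment 2. The propranolol arrays read 5.50, 4.79 and 5.03 in experiment 1 and 5.20, 5.81 and 4.68 in experiment 2. Every propranolol array lay below every control array, and the same held within both experiments. Among all genes, 1.04% lay apart from the controls in either direction when pooled, and 2.01% did within both experiments. No other member lay apart in these ways by its chosen probe. The change was -1.03 ± 0.22, 2.04-fold lower, with a limma adjusted p of 0.00815 (n = 6 and 10). It was -1.15 in experiment 1 and -0.90 in experiment 2. It passed in 26 of 26 fits that left out 1 array, and without the 3 arrays of low weight it was -0.90 (limma adjusted p 0.0489). The probe was detected on 4 of 6 propranolol arrays. Restraint arrays spread from 4.86 to 6.94 and overlapped both other conditions.

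Aplf read 6.21, 5.63 and 6.35 in experiment 1 propranolol arrays and 4.63, 6.48 and 6.02 in experiment 2. In experiment 2 all 3 lay below the controls, of which the lowest was 6.70, and in experiment 1 they overlapped the lowest control (6.28). The change was -1.19 ± 0.31, 2.28-fold lower, the largest of the 30 (limma adjusted p 0.0321). Rmi1 read 5.77, 5.73 and 5.18 in experiment 1, below every control, and 6.08, 6.68 and 5.58 in experiment 2, where 2 lay within the range of the controls and 1 below it. Its change was -0.98 ± 0.26 (limma adjusted p 0.0351), -1.48 in experiment 1 and -0.47 in experiment 2. Xrcc6 read 8.39, 7.99 and 8.33 in experiment 1, below every control, and 8.82, 8.06 and 7.05 in experiment 2, where the first array reached the controls. Its change was -0.74 ± 0.17, 1.67-fold lower (limma adjusted p 0.0167). Without the third propranolol array of experiment 2 it was -0.52 and still passed (limma adjusted p 0.0427), while Rmi1 no longer did (-0.93, limma adjusted p 0.0823) and Xrcc2 passed as higher (0.56, limma adjusted p 0.0291). Without all 3 arrays of low weight Xrcc6 (-0.50, limma adjusted p 0.0545), Aplf (-1.09, limma adjusted p 0.0853) and Rmi1 (-0.77, limma adjusted p 0.153) did not pass. The dimmer probes of Xrcc6 had changes of -0.69 and -0.33 and did not pass.

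Gen1, the nuclease named above, was 2.01-fold lower (SE 0.24 on the log2 scale, limma adjusted p 0.0196), and Rad54b had a change of -1.07 ± 0.28 (limma adjusted p 0.0331). For Rad54b the highest controls (7.34 and 7.15) and the lowest propranolol value (4.255) all lay on the low-weight arrays. With 1 array left out at a time, Gen1 passed in 23 of 26 fits and Rad54b in 20 of 26. Both were lower on 6 of 6 propranolol arrays than the control mean of their experiment, and both overlapped the controls in each experiment. Among members that did not pass, Fancl, the ubiquitin ligase of the Fanconi complex, had a change of -0.77 ± 0.29 (limma adjusted p 0.146). Its propranolol arrays read 7.93, 7.35 and 7.98 in experiment 1 and 8.04, 7.48 and 4.79 in experiment 2, so the third array of experiment 2 stood alone, and without it the change was -0.29. Xrcc2, detected on 10 of 26 arrays, had a change of 0.43 ± 0.15 (limma adjusted p 0.105), the largest rise in the estimate.

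The promoter windows of the 4 members that passed with propranolol are shown because they fell in the same comparison. They are RefSeq windows of the same kind (GRCm38.p6), written 5′ to 3′, and capitals mark CCAAT boxes and E2F sites. They lie at chr6:119902448-119902747 (Rad52, plus strand), chr13:58401998-58402297 (Rmi1, plus strand, the first of its 2 windows), chr15:82016119-82016418 (Xrcc6, plus strand) and chr6:87672112-87672411 (Aplf, minus strand).
Rad52: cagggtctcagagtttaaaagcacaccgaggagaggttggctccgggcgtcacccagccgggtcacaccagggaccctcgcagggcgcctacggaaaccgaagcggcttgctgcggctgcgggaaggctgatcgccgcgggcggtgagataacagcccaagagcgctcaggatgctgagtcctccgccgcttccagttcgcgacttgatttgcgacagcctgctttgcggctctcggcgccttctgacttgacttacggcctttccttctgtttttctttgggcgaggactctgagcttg
Rmi1: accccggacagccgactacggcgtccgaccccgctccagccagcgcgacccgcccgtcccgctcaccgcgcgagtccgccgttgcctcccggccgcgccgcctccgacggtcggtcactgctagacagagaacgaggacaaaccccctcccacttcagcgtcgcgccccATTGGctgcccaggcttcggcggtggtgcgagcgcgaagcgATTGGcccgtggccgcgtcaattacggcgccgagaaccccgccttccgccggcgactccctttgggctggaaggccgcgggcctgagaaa
Xrcc6: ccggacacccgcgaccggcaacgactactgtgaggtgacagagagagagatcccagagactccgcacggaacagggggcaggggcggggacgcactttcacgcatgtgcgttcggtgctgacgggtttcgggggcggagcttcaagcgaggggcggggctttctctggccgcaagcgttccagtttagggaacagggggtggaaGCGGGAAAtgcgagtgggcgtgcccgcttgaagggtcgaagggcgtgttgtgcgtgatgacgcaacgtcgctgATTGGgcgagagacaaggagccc
Aplf: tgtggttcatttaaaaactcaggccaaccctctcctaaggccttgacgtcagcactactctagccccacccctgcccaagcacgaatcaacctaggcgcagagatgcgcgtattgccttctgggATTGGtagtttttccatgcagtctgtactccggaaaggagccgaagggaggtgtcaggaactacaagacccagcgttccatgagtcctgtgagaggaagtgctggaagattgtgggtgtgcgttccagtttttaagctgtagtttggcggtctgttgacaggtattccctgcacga
The Rad52 window held none of the motifs searched. Rmi1 held 2 CCAAT boxes, Aplf 1, and Xrcc6 1 beside 1 E2F site (GCGGGAAA, the reverse complement of TTTCCCGC). The E2F words searched were TTTCCCGC, TTTGGCGC, TTTCGCGC and TTTGCCGC on both strands, and they can share end letters with a CCAAT box.

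Of the 30 kept members, 24 had a window, with 27 windows in all because Rad54l, Lig4 and Rmi1 have 2, those of Rad54l 1 base apart. Of the 27, 63% held a CCAAT box, against 37.4% of all 32851 windows of the table. An E2F site was in 18.5% of them (Bard1, Fancg, Brca2, Xrcc6 and the second Rmi1 window) against 2.26% of all windows, and a CHR element was in 3.7% (Bard1 alone) against 17.9%. The Xrcc3 window held 6 CCAAT boxes, the most of the 27. A match is a description of the letters, and binding was not measured. A link between these motifs and the changes was not tested.

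Restraint plus propranolol against restraint asks whether the blocker changed the signals of restrained mice. Here 0 of 30 members passed, and 0% of all genes did. At an unadjusted p under 0.05 there were 3 members, Rad52 and Dclre1c lower and Xrcc2 higher, against 6.12% of all genes. The median change was -0.04, with 16 members lower and 14 higher. Rad52 had the smallest p: its change was -0.67 ± 0.22 (limma adjusted p 0.58), and 6 of 6 propranolol arrays lay below the restraint mean of their experiment. Dclre1c read 6.04, 6.42 and 5.60 in experiment 1 propranolol arrays and 6.21, 5.80 and 4.40 in experiment 2. The experiment 2 arrays lay below all 5 restraint arrays, which read 6.59, 6.63, 6.79, 6.73 and 7.10, and the experiment 1 arrays did not. Its change was -0.81 ± 0.30 (limma adjusted p 0.683) and -0.51 without the third array of experiment 2. Its other kept probes had changes of -0.01 and 0.21. Xrcc5 had a change of -0.24 ± 0.12 (limma adjusted p 0.8), and its probe was detected on 2 of 6 propranolol arrays and 7 of 10 restraint arrays. Blm had a change of 0.30 with a 95% interval from -0.33 to 0.92. With 1 array left out at a time that change ran from 0.06 to 0.41.

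The restraint changes were larger in experiment 1. There 25 of 30 members were lower, with a median change of -0.21, and in experiment 2 18 of 30 were lower, with a median of -0.06. In 18 members (60%) the change was below 0 in both experiments, against 32.2% of all genes, in 5 it was above 0 in both, and in 7 it differed in sign. Within an experiment 0 members passed, where 0.324% of all genes passed in experiment 1 and 0.0185% in experiment 2. At an unadjusted p under 0.05 there were 6 members in experiment 1 (10% of all genes) and 3 in experiment 2 (8.38% of all genes). The difference between experiments passed for 0 of 30 members, as for 0% of all genes, and 0 members had an unadjusted p under 0.05 against 3.29% of all genes. Blm (-0.997 and -1.08), Aplf (-0.65 and -0.70) and Rmi1 (-0.68 and -0.58) had nearly the same estimate in both. Brip1 did not: it was -1.06 in experiment 1 and -0.13 in experiment 2, where 2 restraint arrays were high. For propranolol against control, 22 of 30 members were lower in experiment 1 and 21 in experiment 2. Within an experiment 0 of 30 passed there, against 0.602% and 0.917% of all genes, and 6 and 7 had an unadjusted p under 0.05, against 9.6% and 16.2% of all genes.

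**Figure D5:**
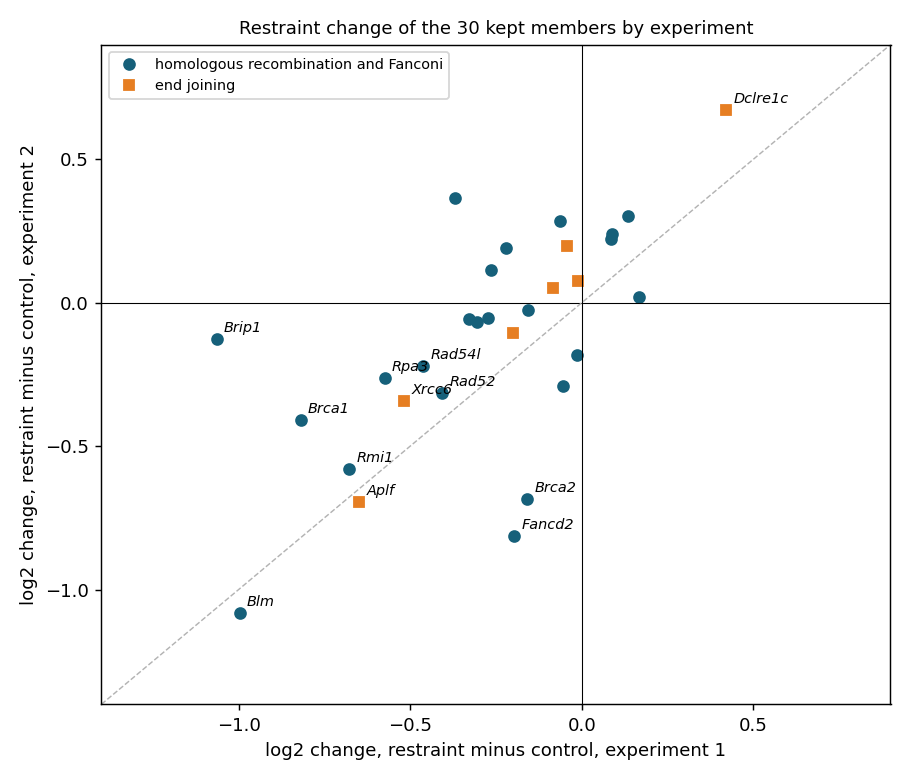
Restraint minus control log2 change of the 30 kept members in experiment 1 (x axis) and experiment 2 (y axis), with end joining members as orange squares and the dashed line at equal change. The lower left of the plot holds 18 members, with Blm at -0.997 and -1.08.

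Other genes of double-strand break repair, from a list of 43 of which 39 were tested, were also looked up. Under restraint 31 of the 39 were lower (79.5%, against 50.6% of all genes), with a median change of -0.10, and 0 passed. At an unadjusted p under 0.05 there were 5 (12.8%), 4 lower and 1 higher, no more than the 14.8% of all genes. Rad51b had the smallest p (-0.46 ± 0.13, limma adjusted p 0.0773). Next came Slx4, a scaffold for junction nucleases (-0.86 ± 0.33, limma adjusted p 0.205), and the helicase Rtel1 (-0.42 ± 0.17, limma adjusted p 0.219). With propranolol against control 26 of 39 were lower, 12 had an unadjusted p under 0.05 (30.8%, against 19% of all genes), and 1 passed: Dntt, the terminal transferase that adds bases to receptor joins in lymphocyte precursors (-1.51 ± 0.39, limma adjusted p 0.0288).

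Markers of other cells moved with these results. The 13 erythroid genes tested were all lower under restraint, with a mean difference of -1.91, and 9 of them passed. Of all genes 2.23% passed in this comparison, 1.2% as lower. Their mean log2 level ran from 5.23 to 9.05 in controls, 5.03 to 6.91 under restraint and 4.86 to 8.08 with propranolol. The 8 B lineage genes tested of 12 listed were all lower too (mean difference -0.88), and 2 of them, Rag1 and Vpreb3, passed. Their level ran from 5.41 to 7.27 in controls, 5.09 to 5.63 under restraint and 5.10 to 5.79 with propranolol. Of 23 S phase and mitosis genes 22 were lower (mean difference -0.22) and 1 passed, and the difference was -0.37 in experiment 1 and -0.07 in experiment 2. Neutrophil genes differed by -0.07 on average and leukocyte genes by 0.07, with 0 that passed in either list. With propranolol against control the erythroid, B lineage, and S phase and mitosis lists differed by -1.85, -1.03 and -0.26. There 2, 2 and 0 of their genes passed, where 3.8% of all genes did. The third control array of experiment 1 had the lowest erythroid and B lineage level of the 10 controls. Among experiment 1 controls it was also lowest for Blm (7.73), Rad52 (6.02), Xrcc6 (8.61), Aplf (6.28) and Brca1 (6.68), though not for Rmi1 (7.18). The fifth control array of experiment 2, with the next lowest erythroid level (5.78), had a Blm value of 8.18, near the control median of 8.19. Its Rmi1 value (5.74) was the lowest of all controls. Among experiment 2 controls it was also lowest for Aplf (6.70), though not for Rad52 (6.05), Xrcc6 (8.81) or Brca1 (6.50). The fourth control array of experiment 2 came after the fifth in erythroid level (6.07) and had the lowest Blm value of all controls (7.32). Among experiment 2 controls it was also lowest for Xrcc6 (8.67) and Brca1 (6.42), though not for Rad52 (6.15) or Aplf (6.91), and highest for Rmi1 (7.70). With propranolol, the second array of experiment 2 had the highest erythroid level (8.08), and it read 7.46 for Blm, 5.81 for Rad52, 6.68 for Rmi1, 8.06 for Xrcc6 and 6.48 for Aplf; Rad52, Rmi1 and Aplf were at their highest propranolol value there. The part of these cell markers in the changes of the repair genes was not tested.

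The arrays lay on 4 slides that did not hold the groups evenly. Slide 1 held 5 control and 3 restraint arrays of experiment 1, and slide 3 held 2 control, 5 restraint and 1 propranolol array of experiment 2. Slide 2 held 2 restraint and 3 propranolol arrays of experiment 1 and 3 control arrays of experiment 2, and slide 4 held only 2 propranolol arrays of experiment 2. Only 1 propranolol array, on slide 3, thus shared a slide with controls of its own experiment. In propranolol against control, condition and slide can therefore hardly be told apart. Within slide 1 the Blm change was -0.80 and within slide 3 it was -0.94. Neither passed, but 0% of all genes did in either small set, so a missing call there says nothing about Blm. The controls of slide 3 included the fourth of experiment 2, which had a low array weight (0.199). With slide as a fixed term, Blm was -0.89 (limma adjusted p 0.24) and Rad52 with propranolol -1.08 (limma adjusted p 0.314), so 0 members passed in either comparison, where 0.723% and 0.213% of all genes did. Xrcc6 with propranolol was then -0.22 in place of -0.74. On slide 3 the propranolol array read 5.20 for Rad52 and the controls 6.15 and 6.05.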

How the data were processed

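RNA of 26 samples was hybridised to Illumina MouseRef-8 v2.0 beadchips. The deposited raw matrix gives, per the file headers, a mean bead signal as an intensity for 25697 probes and array, with a detection p-value for each; the lowest signal is 96.0, so no background was subtracted. The headers also give bead numbers; the chosen member probes had 18 to 66 beads per array (median 38). GenomeStudio is named in the submitters' processing notes with no version. The authors' normalized matrix, intensity per gene symbol whose method is not given in the sources used here, served as an alternative. A further 6 arrays in no labelled group were not used. The number of arrays limits the precision.

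Signals were background-corrected, quantile normalized and put on the log2 scale with limma's neqc (offset 16, detection p-values), so folds of dim probes are understated. Of the probes, 15061 were detected on at least 3 arrays. Probes were named through Entrez identifier, accession or symbol, and the brightest kept probe stood for each of 10792 genes. All kept probes entered 1 limma model (condition plus experiment), and p-values were adjusted over them by Benjamini-Hochberg; a model of 6 groups gave changes within experiments and their difference. The script was tested on simulated data. Named were members that passed, the 10 of smallest p under restraint, the 5 of smallest p in each propranolol comparison, Prkdc, and members whose probes differed in sign. The members and lists were chosen with earlier results of these data known. Same-numbered arrays did not deviate together (4 of 22 pairs with r over 0.1), so no block was used. Alternatives were another background correction, normalization, filter, probe choice, array weights, slide terms and arrays left out. Promoter windows came from RefSeq, and no coordinates were taken from the array files. R 4.3.3, limma 3.58.1, the data.table package (1.17.8), Python 3.11.15 and matplotlib 3.10.9 were used.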

Additional observations from a re-analysis of the deposited data

Results flagged for a closer look

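In groups of 5 arrays, 15 of 128 sets of values held an array that stood far from the others by Dixon's criterion, which flags about 1 in 20 by chance. Most lay on the 2 low-weight control arrays. On the fifth control array of experiment 1, Nbn (9.29), Brip1 (7.21) and Xrcc5 (5.65) were far above the other controls of the experiment, and Rpa2 (7.44), Xrcc3 (4.65) and Fancd2 (4.75) far below. On the fourth control array of experiment 2, Rpa2 (7.48), Rpa3 (7.04), Rad54l (4.87) and Dclre1c (4.67) were far below. Xrcc6 (8.67) was flagged there too, but the nearest control read 8.81, a small distance that stood out because the other controls were tight. The fifth restraint array of experiment 2 was low for Rmi1 (4.80) and high for Fancg (6.20). Fancg was also high on the third control array of experiment 1 (5.68), and Fanci was low on the first restraint array of experiment 1 (5.56).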

How the results depend on the processing

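Under restraint, the count of members that passed was 1 in the fit reported. It was 0 with median scaling (1.38% of all genes), without the filter on dim probes (0.754%) and with the mean of a gene's probes (2.64%). It was also 0 with slide as a fixed term (0.723%) and within slide 1 or slide 3 alone, where 0% of all genes passed. It was 7 with array weights and 4 without the 3 arrays of lowest weight, a setting added once the data had been seen, but the share of all genes that passed also went from 2.23% to 9.35% and 3.75%. Leaving out 1 array at a time gave 0 to 3, where 0.995% to 3.12% of all genes passed. Blm lost its call without control arrays 1, 2, 4 or 5 or restraint arrays 1, 4 or 5 of experiment 1. It also lost it without control arrays 1, 2 or 5 or restraint array 1 of experiment 2 (limma adjusted p at most 0.0773 in all these fits). With propranolol against control the count was 4 (3.8% of all genes), and 2 without the filter (1.81%). It was 3 with the mean of a gene's probes, where Xrcc6 lost its call (4.3%). It was 7 with array weights, 1 of them, Xrcc2, higher (12.3%). It was 0 with slide as a fixed term (0.213%) and 1 without the 3 arrays of lowest weight (Rad52, 2.97%). With 1 array left out the count was 2 to 5, where 2.17% to 4.68% of all genes passed. Rad52 and Xrcc6 passed in 26 of 26 such fits, Aplf in 20 and Rmi1 in 18. Aplf lost its call without control 2 or 5 or propranolol array 2 of experiment 1, or control 1 or 2 or propranolol array 1 of experiment 2 (limma adjusted p at most 0.0924). Rmi1 lost it without control 2, 4 or 5 or any propranolol array of experiment 1, or control 1 or propranolol array 3 of experiment 2 (limma adjusted p at most 0.102). The median change of the members kept its sign except within slide 3 under restraint (0.042) and, for propranolol against restraint, in the authors' normalized matrix (0.013) and with slide as a fixed term (0.035). With 1 array left out it ran from -0.19 to -0.12 under restraint, from -0.08 to -0.02 for propranolol against restraint and from -0.23 to -0.16 for propranolol against control. The causes were not tested. Without background correction the changes were smaller (Rad52 with propranolol -0.33, against -1.03) at the same calls. With the replicate number as a block, though the numbers did not pair the arrays, 1, 0 and 2 members passed in the 3 comparisons. Of all genes 2.42%, 0% and 2.22% did. For propranolol against restraint 0 members passed under every alternative run, where at most 0.222% of all genes did (with array weights). Dim probes limit the rest: 6 of the 30 members were detected on 10 or fewer arrays.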
